A study of Mus musculus with 14 samples.

Results

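The comparison of symptom onset with the naive state in experimental autoimmune encephalomyelitis (EAE) was read from 8 of the 13 libraries of a count table, 4 from mice at the onset of symptoms and 4 from naive mice, over all genes. EAE is an immune attack on myelin that is induced in animals to model multiple sclerosis. The samples were labelled as retinal ganglion cells taken from the eyes of female mice aged 7 to 8 weeks. The naive animals were marked as controls and the onset animals as EAE, and 4 libraries from EAE animals before symptoms (called pre here) and 1 from the peak of disease completed the table. The labels gave no strain, genotype, immunogen, sort or gate for any group, and no statement that replicates came from separate animals, so p-values measure the spread between these libraries only.

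Retinal ganglion cells are the neurons whose axons form the optic nerve, and EAE is known to inflame that nerve and to damage these cells. In the textbook course of such inflammation, neutrophils and monocytes enter the tissue from the blood, microglia and Müller glia react, and antigen-presenting and interferon-induced genes are switched on. Neurofilaments, sodium channels and the neurotrophin receptor TrkB are among the proteins that keep a long projecting axon in working order.

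The naive libraries held 3308627 to 6590972 counts in genes and the onset libraries 2596705 to 6413329. A count of 3, taken as the smallest told apart from 0, was worth 0.455 to 1.16 CPM (counts scaled to a common library total), and covers counting error only. Libraries of the same group correlated across genes at r = 0.935 to 0.984 (naive) and 0.940 to 0.978 (onset), and naive with onset libraries at 0.931 to 0.973, where genes are not independent replicates. The libraries of 1 group differed widely in photoreceptor, bipolar and Müller glia transcripts. The rod index, which is the mean log2 CPM of 15 rod markers, was 3.38, 4.23, 7.45 and 7.98 in naive 1, 2, 4 and 5, and 5.92, 4.49, 7.93 and 4.93 in onset 1, 2, 3 and 4. Naive 4, naive 5 and onset 3 were thus richest in rod transcripts, with onset 1 between them and the rest, and are called rod-rich here with the pre library of highest rod index. The mean log2 CPM of the 12 Müller glia markers was 5.57, 6.60, 5.65 and 6.02 in the naive libraries and 6.69, 3.80, 7.39 and 5.07 at onset, lowest in onset 2 and highest in onset 3.

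Markers of amacrine cells stood above the ganglion cell markers Rbpms, Slc17a6 and Pou4f1 when compared as levels per kilobase of exon. The glycine transporter Slc6a9 reached 358 ± 58.6 CPM per kb (SD, n = 4) in naive libraries and 432 ± 94 at onset. Gad1, which makes GABA, reached 162 ± 67.4 and 165 ± 29.5, and the amacrine transcription factor Tfap2b reached 95.9 ± 8.71 and 86.8 ± 32.4. The ganglion cell marker Rbpms had 2.0 ± 1.18 CPM per kb in naive libraries and 1.11 ± 0.735 at onset, and the glutamate transporter Slc17a6 had 3.20 ± 2.42 and 0.976 ± 0.769. Thy1, at 160 ± 60.8 and 198 ± 19.7, was of the order of the amacrine genes, and Pou4f1, a ganglion cell transcription factor, had 2.85 ± 1.97 and 1.97 ± 2.29. The neurofilament gene Nefl had 96.1 ± 67.2 CPM per kb in naive libraries, level with Tfap2b, and 34 ± 2.79 at onset. Fewer cells of a type and less RNA per cell cannot be told apart in such bulk samples.

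**Figure D1:**
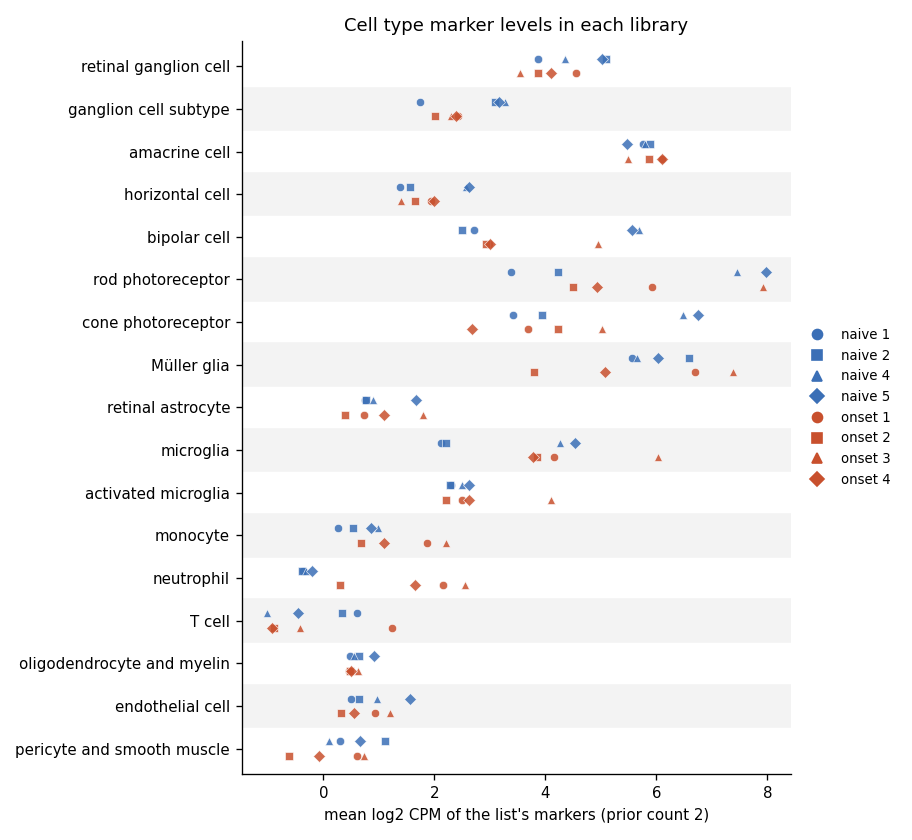
Mean log2 CPM (with a prior count of 2) of the markers of 17 cell type and state lists (horizontal axis) in each library, with naive libraries in blue and onset libraries in orange. The neutrophil list is the one in which the 4 onset libraries (0.30 to 2.56) lie above the 4 naive libraries (-0.38 to -0.20) with no overlap, while naive 4, naive 5 and onset 3 stand to the right in rod and bipolar markers.

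No gene passed an adjusted p of 0.05 in edgeR's quasi-likelihood test of onset against naive. The smallest adjusted p was 0.402, over 14893 genes tested. Without adjustment 888 genes (5.96%) had a p below 0.05, of which 367 (2.46%) were higher at onset and 521 (3.50%) lower. The 4 onset libraries lay above the 4 naive libraries in 207 genes (1.39%) and below them in 251 (1.69%), and 7049 genes (47.3%) had a log2 fold change above 0. DESeq2 called 17 genes (0.100% of 16963), 10 of them higher at onset (0.0590%) and 7 lower (0.0413%), with an unadjusted p below 0.05 in 899 (3.51%). With the rod index as a covariate edgeR called 1 gene, lower at onset (0.00671%), and had 1368 (9.19%) at an unadjusted p below 0.05. Limma-voom with quality weights called 0 at an adjusted p of 0.05 and 1613 (10.8%) at an unadjusted p below 0.05. The genes below are therefore described by their values in each library, and those that 1 of the other fits called are named as such.

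Several transcripts of neutrophils, the granule-bearing phagocytes of the blood, were counted at onset and had no count in the naive libraries. S100a9 and S100a8, which form calprotectin, a plentiful protein of the neutrophil cytosol, Retnlg, a secreted resistin-like protein of mouse neutrophils, and Ltf, the granule protein lactoferrin, had 0 counts in all 4 naive libraries. S100a9 stood at 30.7, 4.36, 39.4 and 18.4 CPM in onset 1, 2, 3 and 4, which is 368 counts in all. Against a floor of 3 counts over the naive group it was at least 130.0-fold higher. S100a8 stood at 12.1, 0.970, 22.2 and 9.18 CPM, at least 63.6-fold higher, and Retnlg at 4.55, 1.45, 4.17 and 1.87 CPM, at least 16.3-fold higher. Onset 2 was the lowest of the 4 for each of these genes, and all 4 onset libraries lay above the naive libraries for these 3. Ltf was at 4.93, 0, 9.90 and 7.31 CPM, so that onset 2 shared the 0 of the naive libraries. The edgeR adjusted p was 0.402 for S100a9, 0.616 for S100a8, 0.402 for Retnlg and 0.748 for Ltf. DESeq2 called all 4, with adjusted p from 8.99e-11 for S100a9 to 0.00524 for Ltf, and edgeR called S100a9 once onset 2 was left out (adjusted p = 0.0178).

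The sequence around the start of these 4 genes is shown because DESeq2 called these neutrophil genes, which had no count in any naive library. Each stretch runs from 250 bases before to 50 bases after the start that RefSeq gives on assembly GRCm38.p6, 5′ to 3′ on the gene's own strand, and capitals mark matches to a motif. S100a9 is on the minus strand at chr3:90695672-90695971 and holds 1 match to the C/EBP pattern, C/EBP factors being regulators of granulocyte genes.
S100a9: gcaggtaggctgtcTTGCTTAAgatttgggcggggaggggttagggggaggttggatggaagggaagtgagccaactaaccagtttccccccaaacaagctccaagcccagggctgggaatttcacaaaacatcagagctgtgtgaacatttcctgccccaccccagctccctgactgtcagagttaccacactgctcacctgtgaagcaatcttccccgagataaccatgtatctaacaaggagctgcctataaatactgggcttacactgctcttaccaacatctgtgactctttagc
S100a8 is on the plus strand at chr3:90668821-90669120, close to S100a9, and holds 1 match to the PU.1 pattern, on the other strand. PU.1 is a regulator of myeloid genes.
S100a8: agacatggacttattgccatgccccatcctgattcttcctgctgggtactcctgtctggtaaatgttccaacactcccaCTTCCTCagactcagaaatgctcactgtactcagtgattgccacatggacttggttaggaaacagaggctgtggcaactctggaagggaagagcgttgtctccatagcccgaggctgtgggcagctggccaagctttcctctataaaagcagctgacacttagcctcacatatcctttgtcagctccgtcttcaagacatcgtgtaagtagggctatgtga
Retnlg is on the plus strand at chr16:48872358-48872657 with 1 match to the C/EBP pattern, on the other strand.
Retnlg: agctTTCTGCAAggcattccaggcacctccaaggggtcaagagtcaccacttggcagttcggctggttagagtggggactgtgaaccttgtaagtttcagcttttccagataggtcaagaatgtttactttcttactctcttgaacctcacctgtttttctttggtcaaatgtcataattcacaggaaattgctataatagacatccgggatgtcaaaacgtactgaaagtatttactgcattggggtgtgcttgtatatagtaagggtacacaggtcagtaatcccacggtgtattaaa
Ltf is on the plus strand at chr9:111019042-111019341 with 1 match to the C/EBP pattern, on the other strand.
Ltf: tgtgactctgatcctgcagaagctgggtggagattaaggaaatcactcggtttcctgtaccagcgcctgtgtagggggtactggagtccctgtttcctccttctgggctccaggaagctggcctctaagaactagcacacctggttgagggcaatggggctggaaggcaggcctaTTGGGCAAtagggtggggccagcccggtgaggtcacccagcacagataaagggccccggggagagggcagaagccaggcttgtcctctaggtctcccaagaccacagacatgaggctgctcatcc
Patterns were searched on both strands, and no 2 matches overlapped. The C/EBP pattern TTGCNNAA was present in 10.8% of 32851 promoters of the same length and the PU.1 pattern GAGGAAG in 13.6%. The interferon response element (3.44% of promoters) and a pattern for STAT binding, TTCNNNGAA (8.30%), had no match in these 4 stretches. A match is a description of the letters only.

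Of the 14 neutrophil markers, 10 passed the filter on low counts, and a marker at 0 in naive libraries could pass only through the other groups. All 10 had a higher mean at onset (median log2 fold change 6.44), 7 of them with an unadjusted p below 0.05, beside 2.46% of all genes, a count that describes the list and supports nothing, since the filter favoured such markers. The granule genes Ngp, Camp and Mmp8 were again at 0 in every naive library and in onset 2. Ngp stood at 12.9, 16.4 and 9.80 CPM in onset 1, 3 and 4, Camp at 1.52, 3.91 and 1.87, and Mmp8 at 3.79, 2.61 and 1.25. The same 3 libraries thus carried 3 further granule transcripts. Mmp9, a gelatinase of neutrophil granules, did not follow them: it was counted in every library, at 336, 193, 97.4 and 108 CPM in naive and 184, 246, 289.8 and 108 at onset. Csf3r, the receptor for the growth factor G-CSF, also overlapped between the groups (1.89, 1.57, 13.4 and 10.8 CPM in naive and 6.82, 7.03, 48.5 and 11.7 at onset) and was highest in onset 3, as the microglial genes below were. Of 5 red blood cell markers 4 had no count in any of the 8 libraries.

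**Figure D2:**
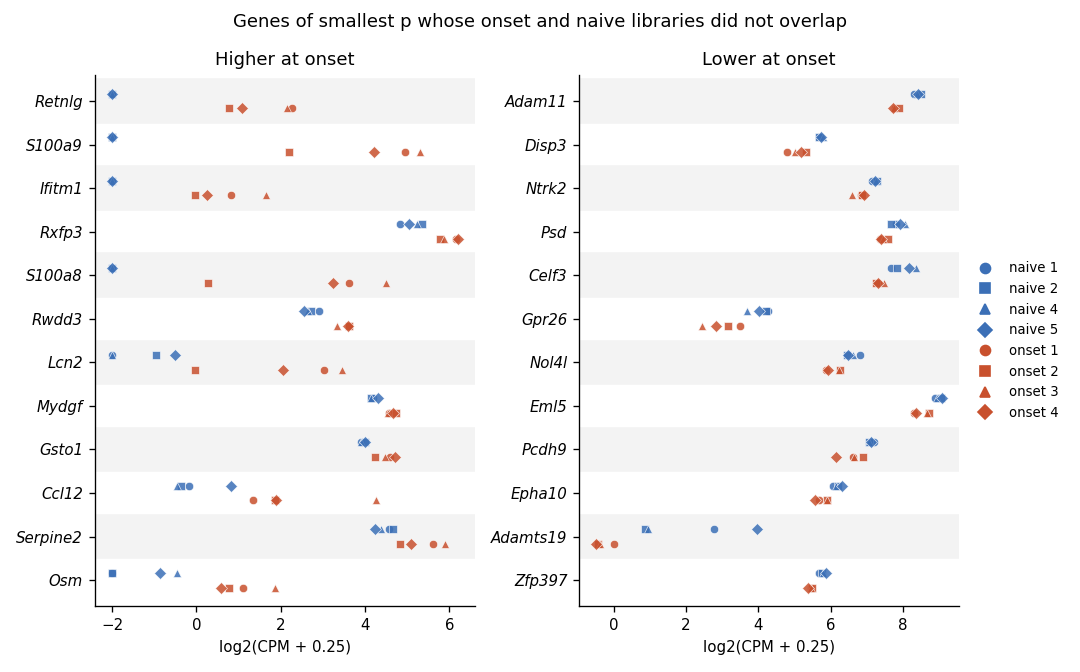
Level in each library, as log2(CPM + 0.25), of the 12 genes higher and the 12 lower at onset with the smallest p among genes whose groups did not overlap and whose higher group averaged 1 CPM or more. Naive libraries are blue and onset libraries orange, and a value of -2 stands for 0 counts, as for Retnlg, S100a9, Ifitm1 and S100a8 in all 4 naive libraries.

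The 12 genes of smallest p in each direction were picked among genes whose groups did not overlap, so their direction in each library follows from the choice. Beside the neutrophil genes, those higher at onset held secreted signals and an acute-phase protein. Lcn2, an iron-binding acute-phase protein of neutrophils and reactive glia, had 0, 0.262, 0 and 0.455 CPM in naive 1, 2, 4 and 5 and 7.96, 0.727, 10.7 and 3.89 in onset 1, 2, 3 and 4. The groups did not overlap in CPM, but onset 2 and naive 5 held 3 counts each. The order of those 2 libraries thus came from their depth alone. Ccl12, a chemokine that draws monocytes, stood at 0.629, 0.525, 0.480 and 1.52 and 2.27, 3.39, 18.8 and 3.42 CPM. Its onset 3 value was the highest by far, and the log2 fold change of 2.99 (SE 0.70) became 1.84 without that library. Osm, an IL-6 family cytokine made by myeloid cells, was at 0, 0, 0.480 and 0.303 and 1.90, 1.45, 3.39 and 1.25 CPM. Ifitm1, an interferon-induced membrane protein, was at 0 in all naive libraries and at 1.52, 0.727, 2.87 and 0.934 CPM at onset, with 24 counts in all. Osm rested on 32 counts at onset and 4 in naive libraries. DESeq2 called Lcn2, Ccl12 and Ifitm1 (adjusted p = 0.0324, 0.0372 and 0.0349), and edgeR gave each of them an adjusted p of 0.616.

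The rest of the higher group held genes that were counted in every naive library. Rxfp3, the receptor of the neuropeptide relaxin-3, had 28, 40.4, 37.4 and 32.7 CPM in naive libraries and 71.3, 54.3, 58.1 and 73.1 at onset, with means of 34.6 ± 5.45 and 64.2 ± 9.40 (SD, n = 4). Its log2 fold change was 0.89 (SE 0.19), with an adjusted p of 0.616 in edgeR and 0.0167 in DESeq2. Serpine2, an inhibitor of thrombin and other serine proteases, had 23.6, 25.2, 20.6 and 18.6 CPM against 48.9, 28.4, 59.7 and 33.8. Here onset 1 and 3 were high, the libraries that were also high in Müller glia markers, and with the Müller glia index as a covariate the log2 fold change was 0.96, beside 0.95 without it. Rwdd3, an enhancer of SUMO conjugation, had 7.23, 6.30, 6.0 and 5.61 CPM against 12.1, 12.1, 9.90 and 11.8. Mydgf, a secreted growth factor first known from bone marrow cells, had 17.9, 17.3, 17.5 and 19.6 against 23.5, 26.4, 23.2 and 25.1, and Gsto1, a glutathione transferase, 14.8, 15.7, 14.6 and 15.6 against 23.9, 18.7, 21.9 and 26. For Rxfp3, Rwdd3, Mydgf and Gsto1 the highest naive library lay below the lowest onset library, and the log2 fold changes were 0.89, 0.88, 0.44 and 0.57.

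Microglial transcripts were higher on average at onset, unevenly over the libraries of both groups. Of 17 microglia markers, 16 had a higher mean at onset, beside 47.3% of all genes, with a median log2 fold change of 1.11. An unadjusted p below 0.05 was reached by 2 of the 17, both higher, beside 2.46% of all genes. Csf1r, the receptor that keeps microglia alive, stood at 21.7, 23.4, 100.3 and 128 CPM in naive 1, 2, 4 and 5 and 103, 90.4, 433 and 92.6 in onset 1, 2, 3 and 4. C1qb, a chain of the complement starter C1q, stood at 6.92, 8.40, 31.4 and 41.1 and 43.2, 36.4, 182 and 37.7 CPM. Aif1, the cytoskeletal protein Iba1, stood at 0.629, 1.31, 2.64 and 3.18 and 4.93, 1.94, 11.7 and 3.73 CPM. The rod-rich libraries naive 4 and naive 5 lay near onset 1, 2 and 4, naive 1 and 2 lay below them, and onset 3 lay above all. Without onset 3 the median of the microglia list was 0.31 and 14 of 17 markers were higher. When the rod index was added as a covariate, the median was 1.28, and 15 of 17 markers had an unadjusted p below 0.05, beside 9.19% of all genes under that covariate. With that covariate and without onset 3 the median was 0.97, and 14 of 17 were higher at an unadjusted p below 0.05, beside 451 of all 14790 genes in that fit. When naive 4, naive 5, onset 3 and the pre library of highest rod index were left out, all 17 were higher, with a median of 1.77, and naive 1 and 2 were then the only naive libraries. No microglia marker passed the adjusted threshold in any of these fits. In the fit with the rod covariate C1qb had an edgeR adjusted p of 0.0521, just above the threshold.

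Genes of activated microglia and monocytes also had smaller medians without onset 3. Of 12 tested genes of activated microglia 11 had a higher mean at onset (median log2 fold change 0.89), but the median was 0.12 over the 9 still tested without onset 3. Ctsd, a lysosomal protease, was the member whose groups did not overlap, at 285, 298, 313 and 326 CPM in naive libraries and 362, 339.7, 746 and 362 at onset. Of 8 monocyte markers 7 were higher (median 1.07, and 0.46 over the 5 still tested without onset 3). Leaving out onset 3 alone kept the rod-rich naive 4 and 5 in the fit. With the rod index as a covariate and without onset 3 the monocyte median was 1.06, and it was 1.95 without the rod-rich libraries. For activated microglia the same fits gave 0.27 and 0.17. Some members of these lists, and of the chemokine and cytokine lists below, could pass the filter on low counts only through the EAE libraries. Their counts of higher members describe the lists only. Chil3, a chitinase-like protein of monocytes and macrophages, had a single count in the naive group and 1.52, 0.485, 3.39 and 1.71 CPM at onset, and lysozyme, Lyz2, had 0.943, 3.94, 10.1 and 8.04 CPM in naive libraries and 10.6, 8.73, 42 and 10.3 at onset. T cell markers were few: 7 of 17 passed the filter, 3 had a higher mean at onset, and Cd4 had 2.83, 2.62, 0 and 0.455 CPM in naive libraries and 1.90, 0, 1.30 and 0 at onset. Cd4 thus overlapped between the groups and had no count in 3 of the 8 libraries.

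Complement genes beyond C1q, chemokines and cytokines had higher means at onset, and their medians were smaller without onset 3. Of 11 complement genes 9 were higher (median 0.95, and 0.44 without onset 3). C3, the central component, stood at 0.629, 2.10, 1.44 and 2.27 CPM in naive libraries and 2.65, 0.970, 8.60 and 5.14 at onset. Of 13 chemokine ligands 9 were higher, with a median of 0.80 that was 0.02 without onset 3. With the rod index as a covariate and without onset 3 the chemokine median was 0.68, and it was 1.27 without the rod-rich libraries. For the complement genes the same fits gave 0.52 and 0.65. Ccl3 and Ccl4, which draw monocytes and T cells and share much of their sequence, stood at 4.17, 5.33, 39.4 and 10.1 and at 0.758, 2.42, 20.1 and 4.98 CPM at onset, after 1.89, 1.31, 4.08 and 5.0 and 0.314, 0.525, 1.68 and 1.52 in naive libraries. Onset 3 was the highest for both and onset 1 lay within the naive range. Cxcl12, a homeostatic chemokine of stroma and vessels, was spread otherwise, at 6.92, 13.4, 5.52 and 10.5 CPM in naive libraries and 16.7, 15.5, 18.8 and 24.6 at onset, with no overlap (log2 fold change 1.06 (SE 0.33), edgeR adjusted p = 0.785). Onset 4 was its highest library. Of 23 cytokine and NF-kB genes 20 were higher, with a median of 0.56 that was 0.15 without onset 3. Their median was 0.24 with the rod index as a covariate and without onset 3, and 0.11 without the rod-rich libraries. Il1b and Il1a, both forms of interleukin-1, stood at 1.14, 0.970, 18.5 and 3.27 and at 1.14, 1.94, 19.8 and 2.18 CPM at onset, with onset 3 far above the rest. Tnfaip2, a TNF-induced gene, had 3 counts in the naive group and 1.14, 0.485, 1.04 and 2.02 CPM at onset. Onset 2 was thus just above the highest naive value of 0.480, but each of these 2 values rested on fewer than 3 counts, so no order can be read from them.

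Genes of antigen presentation had higher means at onset. Of 15 MHC class I and immunoproteasome genes 14 had a higher mean, with a median log2 fold change of 0.56 that was 0.44 without onset 3. An unadjusted p below 0.05 was reached by 7 of the 15, all higher, beside 2.46% of all genes, and by 0 without onset 3. H2-K1, a classical class I heavy chain, stood at 34.9, 33.6, 26.6 and 33.4 CPM in naive 1, 2, 4 and 5 and 77.3, 31, 98.5 and 50.7 in onset 1, 2, 3 and 4. Onset 2 lay among the naive libraries, while onset 1, 3 and 4 lay above. H2-T23, a class I molecule seen by natural killer cells, stood at 2.52, 2.62, 2.40 and 3.03 and 4.55, 3.15, 10.4 and 4.98 CPM, with no overlap, and the immunoproteasome subunit Psmb8 at 1.26, 1.57, 1.68 and 2.58 and 5.31, 1.21, 9.90 and 3.11 CPM. Reads of the H2 genes can be split among close relatives by the counting. Of 7 MHC class II genes 6 were higher (median 1.48, and 0.46 without onset 3). With the rod index as a covariate and without onset 3 the class II median was 1.06, and it was 1.22 without the rod-rich libraries. H2-Ab1, a class II beta chain, stood at 0.314, 1.57, 0.480 and 1.67 CPM and 3.41, 0.242, 10.7 and 2.96, and Cd74, the invariant chain, at 1.26, 5.77, 1.68 and 5.91 and 9.86, 0.485, 28.1 and 4.98. Onset 2 was the lowest of all 8 libraries in CPM for both, but on fewer than 3 counts for each gene. Naive 1 also had fewer than 3 counts of H2-Ab1, so those 2 libraries cannot be ordered for it.

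Of 35 interferon response genes 32 had a higher mean at onset, with a median log2 fold change of 0.72. Without onset 3 the list had 21 of 30 higher and a median of 0.14. The median was 0.28 with the rod index as a covariate and without onset 3, and 0.14 without the rod-rich libraries. Igtp, an interferon-induced GTPase, stood at 1.26, 3.67, 3.36 and 1.97 CPM in naive libraries and 5.69, 3.64, 9.64 and 3.89 CPM at onset, and Trim30a at 0.943, 0.525, 1.20 and 2.43 and 5.69, 1.94, 9.38 and 1.71. Cxcl10, the interferon-induced chemokine that draws T cells, was at 0 in all naive libraries and in onset 1 and 2, and at 2.87 CPM in onset 3 and 0.467 in onset 4. An unadjusted p below 0.05 was reached by 4 of the 35, all higher, beside 2.46% of all genes, and by 0 of 30 without onset 3. A member at 0 in naive libraries, as Ifitm1 was, could pass the filter on low counts only through the other groups. The counts of higher members therefore describe the list and support nothing. No member of the MHC or interferon lists passed the adjusted threshold in edgeR, while DESeq2 called Ifitm1 (adjusted p = 0.0349).

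**Figure D3:**
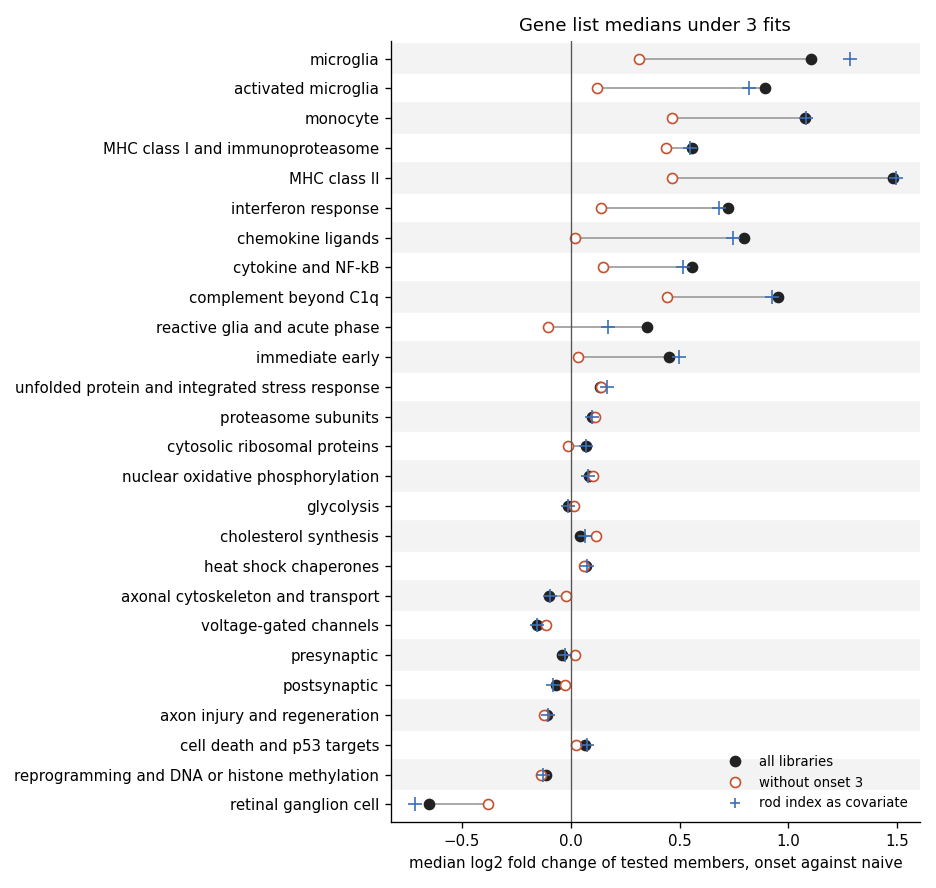
Median log2 fold change of the tested members of 26 gene lists, onset against naive, with all libraries (filled), without onset 3 (open) and with rod transcripts as a covariate (plus sign). The chemokine median goes from 0.80 to 0.02 without onset 3, while those of MHC class I genes (0.56 and 0.44), proteasome subunits (0.10 and 0.11) and methylation genes (-0.11 and -0.14) move little.

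Müller glia and glial reactivity genes had higher means at onset that depended on onset 3. All 12 Müller glia markers had a higher mean at onset (median log2 fold change 0.33), but 2 of 12 did without onset 3, with a median of -0.32. Glul, glutamine synthetase, stood at 762, 1289.7, 849.9 and 894 CPM in naive libraries and 1734, 410.2, 2094 and 510.4 at onset, so that onset 1 and 3 lay above and onset 2 and 4 below all naive libraries. Of 14 reactive glia and acute phase genes 11 were higher (median 0.35, and -0.10 without onset 3). Gfap, the intermediate filament of reactive glia, stood at 2.83, 2.36, 0 and 2.43 and 2.65, 0, 6.52 and 5.91 CPM, and Socs3, a brake on cytokine signals, at 5.66, 16, 11.8 and 13.8 and 17.1, 13.1, 87.3 and 20.5. Gfap was at 0 in 1 library of each group, so no direction could be read from it.

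The 12 genes of smallest p that were lower at onset included Adam11 and Ntrk2. Adam11, a catalytically inactive ADAM protein of neuronal membranes, stood at 318, 362, 335 and 343 CPM in naive 1, 2, 4 and 5 and 219, 238, 215 and 209.9 in onset 1, 2, 3 and 4. The means were 339.7 ± 18 and 221 ± 12.4 (SD, n = 4), a log2 fold change of -0.62 (SE 0.11) with an adjusted p of 0.402 in edgeR and 0.000713 in DESeq2. Ntrk2, which encodes TrkB, the receptor of brain-derived neurotrophic factor, stood at 141, 156, 152 and 149 and 115, 116, 96.2 and 120.1 CPM. Its log2 fold change was -0.42 (SE 0.08), with an adjusted p of 0.402 in edgeR and 0.00524 in DESeq2. All naive libraries of both genes lay within a narrow band above all onset libraries. Disp3, a membrane protein of the Dispatched family, stood at 50.6, 50.9, 55.2 and 52.9 and 27.7, 39.3, 32.3 and 35.8 CPM. Psd, an exchange factor for the small GTPase ARF6 at synapses, stood at 224, 203, 264 and 242 and 164, 193, 173 and 167. DESeq2 called Disp3 and Psd (adjusted p = 0.0164 and 0.0351), and edgeR gave them an adjusted p of 0.402 and 0.616.

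Celf3, a neuronal splicing factor, stood at 202, 228, 331 and 288 CPM in naive libraries and 159, 152, 176 and 158 at onset. Its naive values were highest in the rod-rich naive 4 and 5, and it was the gene that edgeR called with the rod index as a covariate (log2 fold change -0.68, adjusted p = 0.0339). With that covariate 0 genes were called once onset 3 or naive 5 was left out. Without the rod-rich libraries the log2 fold change of Celf3 was -0.46 (edgeR adjusted p = 0.819). Gpr26, an orphan receptor of the brain, had 19.2, 18.1, 12.7 and 16.1 CPM against 11, 8.73, 5.21 and 6.85. DESeq2 called Celf3 and Gpr26 (adjusted p = 0.0349 and 0.0497), and edgeR without the covariate gave each an adjusted p of 0.616. Eml5, a microtubule-associated protein, had 476, 531, 491 and 541 against 315, 425, 409 and 330.2, and the adhesion protein Pcdh9 had 145, 133, 134 and 138 against 98.2, 118, 100.1 and 70.3. Nol4l, Epha10, an ephrin receptor, and Zfp397, a zinc finger protein, had log2 fold changes of -0.51, -0.44 and -0.33. Adamts19, a secreted metalloproteinase, was different in kind, at 6.60, 1.57, 1.68 and 15.3 CPM in naive libraries and 0.758, 0.485, 0.521 and 0.467 at onset, with 9 counts at onset. These 12 genes were long, with a median exon length of 7949 bases beside 4533 over the genes tested, while the 12 higher genes had 2122.5. The log2 fold changes of Adam11 and Ntrk2 were -0.60 and -0.33 once each library's trend over exon length was removed.

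Ganglion cell markers had lower means at onset, with wide scatter in both groups. Nefl, Nefm and Nefh are members both of this list and of the axonal list below. Of 15 markers tested 11 were lower, with a median log2 fold change of -0.65. The median ran from -1.43 without onset 1 to -0.38 without onset 3, and 1 of 15 was higher when the rod-rich libraries were left out (median -0.39). Slc17a6, the vesicular glutamate transporter of ganglion cells, stood at 1.26, 25.7, 12.2 and 29.9 CPM in naive 1, 2, 4 and 5 and 11.4, 3.88, 2.09 and 3.73 in onset 1, 2, 3 and 4. Rbpms stood at 3.77, 18.6, 9.84 and 20.3 and 14.4, 5.58, 3.91 and 5.14, and the transcription factor Pou4f1 (Brn3a) at 2.20, 23.1, 9.84 and 18 and 25, 3.15, 2.35 and 6.22. Naive 1 was the lowest naive library and onset 1 the highest onset library for these 3 genes, so the groups overlapped. Pou4f2 (Brn3b) and Sncg, gamma-synuclein, had log2 fold changes of -1.81 (SE 1.09) and -1.72 (SE 0.78), also with overlap. Thy1, a surface glycoprotein, had 648, 626, 338 and 307 against 576, 681, 554 and 563 CPM. It was lowest in the rod-rich naive 4 and 5, and its log2 fold change was 0.31 (SE 0.22), of the other sign to Rbpms, and -0.07 without the rod-rich libraries.

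Neurofilaments, the intermediate filaments of large axons, had lower means at onset, without overlap between the groups for Nefl and Nefm. Nefl stood at 139.9, 168, 357 and 633 CPM in naive libraries and 122, 113, 103 and 122 at onset. The onset values were nearly equal, and the naive mean of 325 ± 227 (SD, n = 4) was highest through the rod-rich naive 4 and 5. Its log2 fold change was -1.50 (SE 0.41) with an edgeR adjusted p of 0.767. Nefm stood at 180.1, 98.4, 102 and 249 and 80, 43.2, 39.1 and 68.6 CPM, with a log2 fold change of -1.45 (SE 0.42), and Nefh at 50.6, 24.9, 30.5 and 42.1 and 22.4, 20.4, 19 and 40.6, with overlap. Of the 30 axonal cytoskeleton and transport genes 22 had a lower mean and 6 an unadjusted p below 0.05, all lower, beside 3.50% of all genes. In 4 of the 30 every onset library was below every naive library, beside 1.69% of all genes. The median was small, at -0.10. Sptbn4, the spectrin of the axon initial segment, stood at 248, 287, 283 and 256 and 218, 240.0, 186 and 233 CPM, and Map1a, which binds microtubules, at 308, 316, 367 and 413 and 269, 288, 181 and 274. Onset 3 was the lowest library for both. Without onset 3, 14 of 30 genes were higher and the median was -0.02, and with the length trend removed 18 of 30 were lower, with a median of -0.05.

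Voltage-gated channel genes had lower means at onset. Of 28 voltage-gated channel genes 4 had a higher mean and 24 a lower one, beside 47.3% of all genes higher, with a median log2 fold change of -0.16. An unadjusted p below 0.05 was reached by 6 that were lower, beside 3.50% of all genes, and by 1 that was higher, beside 2.46%. Cacna1g, a T-type calcium channel, stood at 709, 747, 593 and 603 CPM in naive libraries and 527, 594, 524 and 494 at onset, and the sodium channel Scn1a at 143, 162, 218 and 240.3 and 135, 161, 128 and 117. In both, onset 2 alone of the onset libraries exceeded the lowest naive library. Kcnb2, a delayed-rectifier potassium channel, was the higher one, at 48.4, 75.3, 63.8 and 50.6 and 84.2, 65.5, 85.8 and 98.5 CPM. The channel median was -0.09 with the length trend removed and -0.12 without onset 3.

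Of 28 postsynaptic genes 21 had a lower mean (median -0.07, and -0.03 without onset 3). Of 28 presynaptic genes 17 had a lower mean and 11 a higher one, beside 47.3% of all genes higher. Their median was -0.04, but 0.03 without naive 1 and 0.02 without onset 3, so no direction could be read for that list. The scaffold genes Shank3, Shank1 and Shank2 had log2 fold changes of -0.37 (SE 0.10), -0.31 (SE 0.11) and -0.31 (SE 0.13). Shank3 was at 61, 66.9, 65.5 and 76.6 CPM in naive libraries and 56.9, 54.1, 45.4 and 53.8 at onset, with no overlap. Syt2, a fast calcium sensor of release, was at 1.26, 4.72, 7.44 and 9.25 and 0.758, 1.70, 1.30 and 0.934 CPM, with overlap through naive 1. Sv2c, a synaptic vesicle protein, was at 80.5, 86.1, 61.7 and 149.6 and 37.9, 43.2, 59.9 and 37.5 CPM, with no overlap. Cplx3, a complexin of ribbon synapses and amacrine cells, had the other direction, at 856, 1016, 1056 and 812 and 1158, 1024, 988 and 1396 CPM.

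**Figure D4:**
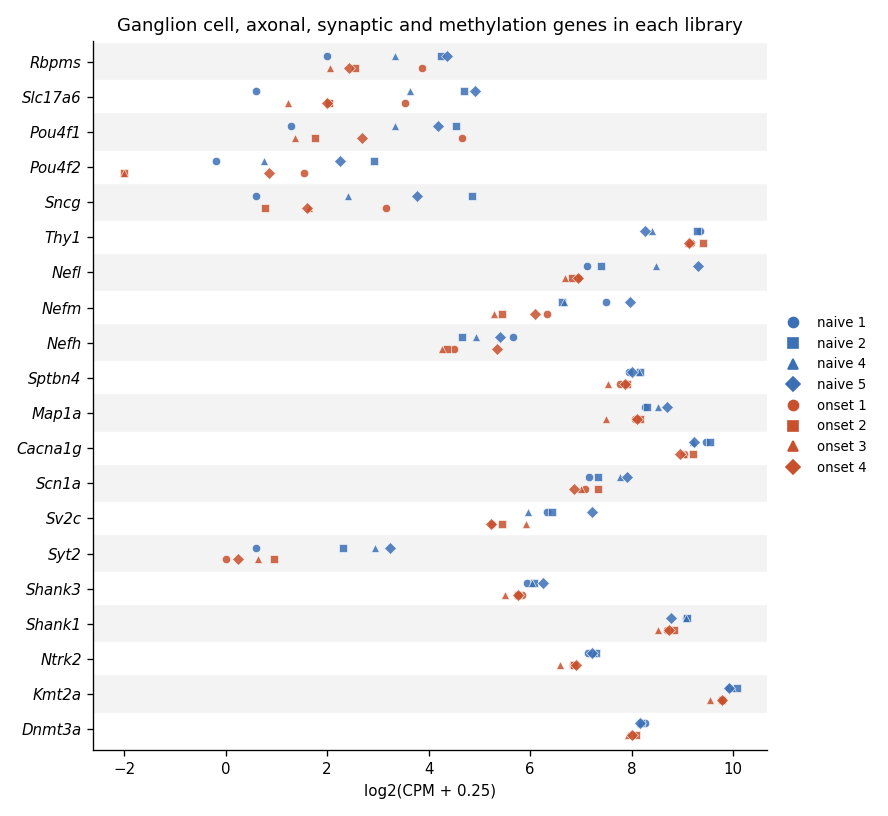
Level in each library, as log2(CPM + 0.25), of 20 ganglion cell, axonal, channel, synaptic and methylation genes, with naive libraries in blue and onset libraries in orange. Rbpms, Slc17a6 and Pou4f1 scatter widely in both groups, whereas the 4 onset values of Nefl lie between 103 and 122 CPM, below all naive values.

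Of 19 tested genes of pluripotency factors and of DNA or histone methylation, 15 had a lower mean at onset and 6 an unadjusted p below 0.05, all lower, beside 3.50% of all genes. In 3 of them, Dnmt3a, Kmt2a and Tet3, every onset library lay below every naive library, as in 1.69% of all genes. Dnmt3a, a DNA methyltransferase of neurons, stood at 307, 292, 285 and 287 CPM in naive libraries and 256, 271, 243 and 257 at onset, a log2 fold change of -0.19 (SE 0.06). Kmt2a, a histone H3 lysine methyltransferase, stood at 969.5, 1076, 1008 and 971 and 877, 884, 748 and 878 CPM, and Tet3, which oxidises methylcytosine, at 129, 121, 137 and 148 and 115, 101, 118 and 118. The differences were small and the naive values tight. The median of the list was -0.11. It was -0.07 once the length trend was removed, and then 0 of the 19 had an unadjusted p below 0.05. Of the pluripotency factors Pou5f1 had 0 counts in all 8 libraries, which allows up to 0.455 to 1.16 CPM in a library. Sox2, which Müller glia also express, stood at 4.09, 13.1, 6.0 and 7.73 and 11.8, 0.485, 19 and 3.11 CPM, and Klf4 at 4.40, 2.89, 2.64 and 8.95 and 3.03, 5.58, 16.9 and 1.25. Sox2 was lowest in onset 2 and highest in onset 3, as Glul was, and its sign depended on the libraries kept.

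Photoreceptor and bipolar transcripts were uneven within both groups. All 11 cone markers had a lower mean at onset (median log2 fold change -1.89), and Gnat2, cone transducin, stood at 9.12, 16.3, 133 and 172 CPM in naive libraries and 12.9, 19.9, 38.8 and 4.51 at onset. Naive 4 and 5 held the highest values. In the fit with the rod covariate the cone median was -1.43 and 9 of 11 were lower at an unadjusted p below 0.05, beside 722 of all 14893 genes in that fit, but without the rod-rich libraries it was -0.07. Of 12 bipolar markers 11 were lower (median -1.04, and 0.53 without the rod-rich libraries). The 3 highest values of Gnat2 were thus those of naive 4, naive 5 and onset 3.

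Stress and housekeeping genes differed little. Of 19 genes of the unfolded protein and integrated stress response 18 had a higher mean, with a median log2 fold change of 0.14. Without the rod-rich libraries 8 of the 19 were higher, with a median of -0.04. Hspa5, the chaperone BiP, stood at 312, 447, 297 and 313 CPM in naive libraries and 385, 408, 424 and 471 at onset. Of 34 proteasome subunits 30 were higher (median 0.10), 58 of 74 nuclear oxidative phosphorylation genes (median 0.08) and 62 of 78 ribosomal protein genes (median 0.07). Psmc3, a subunit of the proteasome cap, had 104, 91.3, 78.2 and 82 against 104, 105, 108 and 106 CPM, with naive 1 almost level with the onset libraries, and Ndufb9, a subunit of complex I, had 44.6, 44.4, 47.8 and 50.9 against 53.8, 53.1, 54 and 56.5. With each library's trend over exon length removed, the medians were 0.09 for the proteasome, 0.04 for oxidative phosphorylation and 0.04 for ribosomal genes. The ribosomal median was -0.01 without onset 3. Without the rod-rich libraries the medians were 0.02 for the proteasome, 0.08 for oxidative phosphorylation and 0.14 for ribosomal genes. Of 19 glycolysis genes 9 were higher (median -0.01), although Pfkp, a phosphofructokinase, was lower without overlap, at 1742, 1993, 2140.2 and 2068 and 1359, 1633, 1507 and 1446 CPM. Of 19 immediate early genes 12 were higher (median 0.45, and 0.03 without onset 3). Egr1 was at 315, 163, 65 and 81.6 CPM in naive libraries and 154, 881, 326 and 205 at onset, with onset 2 the highest.

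The direction of small differences followed exon length. The genes were sorted into 10 classes of equal size by exon length. In the class of shortest exons (61 to 1767 bases) the median log2 fold change was 0.06, with 62 genes higher and 37 lower at an unadjusted p below 0.05. In the class of longest (10079 to 123179 bases) it was -0.08, with 10 higher and 98 lower. The trend came from some libraries of both groups. The longest class minus the shortest was 0.19 in naive 2 and 0.12 in naive 5 on the log2 scale, 0.01 to 0.02 in naive 1, naive 4, onset 1 and onset 2, -0.04 in onset 4 and -0.13 in onset 3. With the trend of each library removed, the shortest class had 46 genes higher and 48 lower, and the longest 33 and 40. The values given above with the trend removed show how far each list moved with it.

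**Figure D5:**
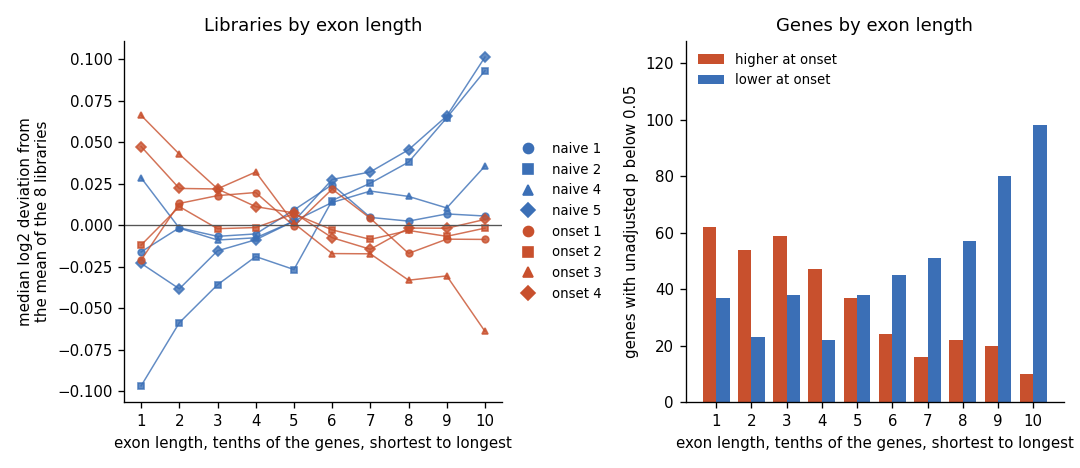
Left, the median log2 deviation of each library in 10 classes of exon length, with naive libraries in blue and onset libraries in orange. The deviation is from the mean of all 13 libraries of the table, not of 8 as the axis label has it. Right, the number of genes with an unadjusted p below 0.05 that were higher (orange) or lower (blue) at onset in each class, from 62 and 37 in the shortest to 10 and 98 in the longest.

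The onset libraries were also set against the pre libraries, which share the onset group with the comparison above. In this test edgeR called 0 of 14893 genes, with 1015 (6.82%) at an unadjusted p below 0.05, and DESeq2 called 22. Neutrophil transcripts were counted before symptoms too, with a mean of 13.5 ± 5.81 CPM (SD, n = 4) for S100a9 and 5.45 ± 3.36 for S100a8, and the log2 fold changes from pre to onset were 0.75 (SE 0.59) and 0.98 (SE 0.76). Ltf was at 1.07 ± 0.861 CPM before symptoms, with a log2 fold change of 2.24 (SE 0.99) from pre to onset and an edgeR adjusted p of 0.734. Csf1r was at 196 ± 89 CPM in pre libraries, and its log2 fold change to onset was -0.12 (SE 0.71). Ntrk2 and Adam11 were at 146 ± 6.26 and 307 ± 53.3 CPM in pre libraries, beside 149.8 ± 6.37 and 339.7 ± 18 in naive ones. Their log2 fold changes from pre to onset were -0.38 (SE 0.08) and -0.48 (SE 0.11), with edgeR adjusted p of 0.579 and 0.606. DESeq2 called both, with adjusted p of 0.0113 for Adam11 and 0.00764 for Ntrk2. Ganglion cell markers had higher means before symptoms than at onset, Slc17a6 at 32.2 ± 27.5 and Rbpms at 32.5 ± 23.9 CPM in pre libraries. Of 15 ganglion cell markers 13 were lower at onset than in pre, while 7857 of all 14893 genes were higher. An unadjusted p below 0.05 was reached by 9 of the 15, all lower, beside 553 lower genes among all 14893. The edgeR adjusted p was 0.615 for Rbpms and 0.653 for Slc17a6.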

How the data were processed

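RNA of cells labelled as retinal ganglion cells from naive and EAE mice was sequenced by the authors, who deposited 1 table of raw counts per gene. The submitters' processing notes name HISAT2, HTSeq, cutadapt and DESeq2, while nothing read here states the build, the gene models or the strandedness of the counting; overlapping, antisense and near-identical genes may therefore share reads. The table held 13 libraries, 40840 genes and 5 summary lines, which stayed out of all totals; reads in no gene were 25.0% to 27.6% of the 8 libraries compared. The labels list 14 samples, and 1 of the peak of disease was not analysed here. The gene lists, the comparison and the rules were chosen with earlier results of these data known.

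The test was edgeR's (4.0.16, under R 4.3.3), with TMM factors, a filter on low counts (filterByExpr by group, minimum count 10, 14893 genes kept) and 1 quasi-likelihood fit over all 13 libraries, with Benjamini-Hochberg adjustment over all genes tested and a threshold of 0.05. The common biological coefficient of variation was 0.220. A gene was named in the text as 1 of the 12 of smallest p in each direction without overlap between groups and with at least 1 CPM in the higher group, as a member of smallest p of a list (up to 4), as a marker of a cell type, or as a call of an alternative. Genes outside these rules were chosen after their values were seen. CPM values were computed from the counts and TMM factors. Levels of lists are means of log2 CPM with a prior count of 2. DESeq2 1.42.0 and limma 3.58.1 (voom with quality weights) were alternatives, with other scalings and filters, libraries left out, a replicate block, covariates for rod and Müller glia transcripts, and values from which a lowess trend on exon length (span 0.3, 14082 genes with a length) was taken out library by library. The covariate for Müller glia and further fits without the rod-rich or pre libraries were added after the data were seen. The scripts were tested on simulated counts. Within the naive group and within the onset group, no 2 libraries differed by as little as counting noise, and other pairs were not compared in this way. The smallest two-sided p that an exact permutation test of 4 against 4 libraries can give is 0.028571, so no such test is used. Promoter sequences are RefSeq's, on GRCm38.p6, matched by symbol. Some genes are not reported here.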

Additional observations from a re-analysis of the deposited data

Results flagged for a closer look

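Of 210 groups of 4 libraries tested on log2 CPM, 15 held a library whose gap to the next exceeded Dixon's 95% critical value as a share of the range, and chance gives about 5% of groups. Onset 3 was that library in 8, naive 4 in 3, onset 2 in 2, and naive 2 and naive 5 in 1 each.

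Onset 3 was far above the other onset libraries in myeloid and lysosomal genes. Csf1r was at 433 CPM there and at 90.4 to 103 in the others, C1qb at 182 beside 36.4 to 43.2, Lyz2 at 42.0 beside 8.73 to 10.6 and Ctsd at 746 beside 340 to 362. It was below the others in Map1a, at 181 beside 269 to 288, in Kmt2a, at 748 beside 877 to 884, in Rwdd3, at 9.90 beside 11.8 to 12.1, and in the proteasome gene Psmd10, at 8.86 beside 11.4 to 12.

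Naive 4 stood apart in H2-K1, at 26.6 CPM beside 33.4 to 34.9, in Gfap, at 0 beside 2.36 to 2.83, and in Chil3, at 0.240 beside 0 in the other naive libraries, which is 1 count. Shank1 was at 440 CPM in naive 5 beside 540.0 to 548, and Hspa5 at 447 in naive 2 beside 297 to 313. Onset 2 was below the others in Tet3, at 101 beside 115 to 118, and in the pericyte gene Rgs5, at 3.15 beside 7.78 to 8.34.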

How the results depend on the processing

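The number of genes called in onset against naive was 0 in 21 of the 24 alternatives, and was 1 with the rod index as a covariate (Celf3) and 17 with DESeq2. Leaving out 1 library at a time gave 0 to 1 calls, the 1 being S100a9 without onset 2. In onset against pre DESeq2 called 22, and 25 other alternatives gave 0. The count of genes with an unadjusted p below 0.05 in onset against naive, 888 in the main analysis, was 1368 with the rod index as a covariate, 1613 with limma-voom, and 597 to 1479 when 1 library was left out (1479 without naive 1). A replicate block gave 505 over all libraries and 249 with naive and onset 1, 2 and 4 paired. Libraries of the same number did not deviate together (correlations of -0.01, -0.06 and -0.04), and none of them correlated best with its own number, so the numbers were not taken as pairs.

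Of the values of named genes under the alternatives, 2399 kept their direction and side of the threshold, 17 passed it and 24 changed sign, in 4 genes whose groups overlapped; the cause was not tested. Some genes fell under the count filter and had no value in a setting. Sox2, at 0.11, was -0.69 with the block over all libraries, -0.98 with the paired block, -0.26 with the rod index, -0.32 with the Müller glia index, -1.04 with limma-voom, -0.90 without the 4 rod-rich libraries, -0.68 with the rod index without onset 3, -0.85 with it without naive 5, and -0.72 (without onset 3) to 0.51 (without onset 2) when 1 library was left out. Klf4, at 0.45, was -0.15 with the paired block, -0.59 (without onset 3) to 1.03 (without naive 5) when 1 library was left out, -0.18 without the rod-rich libraries, -0.47 with the rod index without onset 3 and -0.41 with limma-voom. Glul, at 0.32, was -0.25 and -0.42 with the 2 blocks, -0.10 (without onset 3) to 0.61 (without onset 2) when 1 library was left out, -0.22 without the rod-rich libraries, -0.10 and -0.27 with the rod index without onset 3 or naive 5, and -0.069 with limma-voom. Thy1 was -0.069 without the rod-rich libraries. Of the list medians under the alternatives, 851 stayed within their spread and 68 moved by more.

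At these depths a gene under about 1 CPM rests on a few counts per library, and replicates of unknown origin limit every test to the spread between libraries.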

Other observations

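Mki67 and Top2a, markers of dividing cells that were chosen after their values were seen, had higher means at onset on few counts. Mki67, a nuclear protein of dividing cells, stood at 0.314, 0, 1.92 and 0.606 CPM in naive 1, 2, 4 and 5 and at 9.48, 4.61, 7.30 and 1.87 in onset 1, 2, 3 and 4, and DESeq2 called it (adjusted p = 0.0324, edgeR adjusted p = 0.616), although onset 4 lay below naive 4. Top2a, the topoisomerase of dividing cells, stood at 0, 0.787, 0 and 0.303 CPM and at 2.65, 2.18, 2.87 and 0.934, with no overlap, and neither edgeR nor DESeq2 called it (adjusted p = 0.773 and 0.382). Ccna2 had a log2 fold change of -0.24 (SE 0.20), and Cdk1, Ccnb1, Birc5, Bub1 and Cenpf had too few counts to be tested in edgeR. DESeq2 gave Ccna2, Birc5, Bub1 and Cenpf an adjusted p of 0.999 each. Slfn4, a myeloid gene of the Schlafen family, had no count in the naive libraries and 6.82, 0.242, 1.30 and 0.934 CPM at onset. DESeq2 called Slfn4 (adjusted p = 0.0403, edgeR adjusted p = 0.777), with 1 count in onset 2.

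Oxtr, the oxytocin receptor, was called lower by DESeq2 (adjusted p = 7.96e-05, edgeR adjusted p = 0.616) on values that differed greatly between naive libraries, at 88.7, 0.525, 11.3 and 149 CPM beside 0.758, 0.485, 0.782 and 0.311 at onset. Naive 2 lay among the onset libraries. Bcl11a, a transcription factor of neurons, stood at 10.7, 13.1, 15.1 and 15.9 CPM in naive libraries and 7.20, 7.27, 5.47 and 9.80 at onset, with no overlap. Dcc, the netrin receptor that guides axons, had a log2 fold change of -0.63 (SE 0.15), with overlap. Qdpr, which regenerates the cofactor tetrahydrobiopterin, stood at 135, 172, 170 and 143 CPM and at 212, 180, 203 and 238, with no overlap. Bcl11a, Dcc and Qdpr, too, were chosen after their values were seen, while Oxtr was named as a call of DESeq2.

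Of 15 ganglion cell subtype markers 12 had a lower mean at onset, with a median log2 fold change of -0.91, beside 47.3% of all genes higher; 2 had an unadjusted p below 0.05, both lower, beside 3.50% of all genes, and 0 passed the adjusted threshold in edgeR. The median ran from -1.25 without naive 1 to -0.57 without naive 5.

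Of 12 amacrine cell markers 9 had a higher mean at onset (0.17 median log2 fold change), of 15 axon injury and regeneration genes 5 (-0.11), of 12 cell death and p53 target genes 7 (0.07), of 14 heat shock chaperones 9 (0.07) and of 21 cholesterol synthesis genes 12 (0.04), beside 47.3% of all genes. Without naive 1, 20 of the 21 cholesterol synthesis genes had a higher mean, with a median of 0.27.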
